A study of Mus musculus with 4 samples.

Results

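The H3K4me3 regions at 4 antiviral genes of the interferon response, Slfn8 and Slfn9 on chromosome 11, Samd9l on chromosome 6 and Mx2 on chromosome 16, were analyzed in ovaries of mice exposed to chlordecone (CD) before birth. They were taken by position, as every row of the deposited list of differential regions (called rows here) that overlaps the body of one of these genes in the mouse genome build mm10 or lies within 50 kb of it. This gave 5 of the 151 rows in the list, 1 at Slfn9, 1 at Slfn8, 1 at Mx2 and 2 at Samd9l. The genes had been chosen by the listed fold change of the rows beside them, so this value is given as a description and not as a test.

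CD is an organochlorine insecticide. Pregnant Swiss mice were gavaged each day with 100 µg of it per kg of body weight in olive oil between E6.5 and E15.5 of gestation (embryonic days), and control mothers received oil alone. H3K4me3, trimethylation of lysine 4 of histone H3, was measured by ChIP-seq in adult ovaries of their first-generation daughters, in 2 CD and 2 control samples, each made from 2 ovaries of different animals. The exact age of these adults is not given in the methods. Whole ovaries mix germ cells, granulosa and theca cells, stroma, vessels and leukocytes. A larger or smaller number of cells of a type cannot be told apart from more or less of the mark per cell. The list gives each row a position and one signed fold change of CD over control, and no value per sample, p-value or unchanged region. The depth of each sample is therefore unknown here, and no spread between replicates can be given for any of the 5 values.

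H3K4me3 gathers at the start sites of active or poised genes. Interferons are secreted upon detection of foreign nucleic acids, bind receptors on neighbouring cells and, through JAK kinases and STAT and IRF factors, switch on a large set of antiviral genes. Many of their promoters carry the interferon-stimulated response element (ISRE). Schlafen proteins act in immune cell growth and in restriction of viruses, Samd9l is an interferon-inducible antiviral and growth-restraining factor, and Mx2 is a dynamin-like GTPase of the Mx family, whose genes are defective in many laboratory mouse strains. The Schlafen and Mx families arose by gene duplication, so that neighbouring members resemble each other in sequence.

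The sequences of the Slfn9 and Samd9l rows are shown beside their closest match in the genome, because each was shared nearly base for base with a neighbouring gene. Such sharing is common in the list: with up to 2 mismatches, 82 of the 151 rows (54.3%) have at least 50% of their 50-base words at another place, as do these 2 of the 5 rows. All are from the mm10 reference, plus strand, 5′ to 3′, and capitals mark the bases that differ between the members of a pair. The Slfn9 row and its counterpart in Slfn8 agree at 98 of 100 bases, and the Samd9l row and its counterpart in Gm20559, a long non-coding RNA gene, at 215 of 224.
Slfn9 row, chr11:82990746-82990845: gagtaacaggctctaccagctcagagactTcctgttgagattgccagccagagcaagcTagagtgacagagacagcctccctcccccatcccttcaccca
Slfn8 counterpart, chr11:83019717-83019816: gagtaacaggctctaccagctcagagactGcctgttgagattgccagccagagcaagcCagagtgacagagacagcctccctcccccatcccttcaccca
Samd9l row, chr6:3396825-3397048: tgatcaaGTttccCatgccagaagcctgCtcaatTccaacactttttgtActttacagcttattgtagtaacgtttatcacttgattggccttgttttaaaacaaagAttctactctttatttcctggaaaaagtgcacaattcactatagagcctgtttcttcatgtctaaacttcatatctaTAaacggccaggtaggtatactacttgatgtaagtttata
Gm20559 counterpart, chr6:3344686-3344909: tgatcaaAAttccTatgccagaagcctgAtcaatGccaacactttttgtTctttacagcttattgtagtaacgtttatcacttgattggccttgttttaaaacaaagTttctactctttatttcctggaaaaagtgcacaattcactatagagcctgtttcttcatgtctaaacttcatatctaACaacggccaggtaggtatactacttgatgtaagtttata
The Slfn9 row, its counterpart and the Samd9l row are intronic, and the 224 bases at Gm20559 are exonic.

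For the Mx2 row, a stretch of 150 bases is shown with its counterpart in Mx1, an antiviral GTPase gene whose outermost start is 72.4 kb from that of Mx2. It was picked as the best-matching 150 columns of a longer alignment of 89% identity with 22 gap columns, and 44.3% of the row aligns to Mx1 at all. The Mx1 stretch is written from the minus strand, both are intronic, and 3 bases in capitals differ.
Mx2 row, chr16:97536993-97537142: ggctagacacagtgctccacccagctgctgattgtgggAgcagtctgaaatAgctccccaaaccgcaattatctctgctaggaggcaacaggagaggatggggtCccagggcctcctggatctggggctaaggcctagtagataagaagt
Mx1 counterpart, chr16:97462400-97462549: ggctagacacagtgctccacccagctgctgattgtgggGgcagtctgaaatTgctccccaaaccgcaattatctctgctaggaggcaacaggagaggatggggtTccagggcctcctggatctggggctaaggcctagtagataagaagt

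The distal row at Samd9l had the largest listed fold change of the 5, and it is printed with its 9 CpG dinucleotides, the sites of DNA methylation, in capitals.
Samd9l distal row, chr6:3341103-3341346: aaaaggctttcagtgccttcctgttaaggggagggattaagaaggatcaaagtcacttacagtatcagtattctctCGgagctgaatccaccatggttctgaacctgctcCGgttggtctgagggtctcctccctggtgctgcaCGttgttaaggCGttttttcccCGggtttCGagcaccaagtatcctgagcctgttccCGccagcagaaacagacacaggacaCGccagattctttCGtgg

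All 5 rows were listed as higher in CD, as were 135 of the 151 rows in the list. The distal row at Samd9l has a listed fold change of 2.54 (1.35 on the log2 scale), which ranks 24 among the 135. The intronic row of Samd9l is listed at 1.98 and the Mx2 row at 1.97, at ranks 52 and 54. The Slfn9 row is listed at 1.85, rank 67, and the Slfn8 row at 1.55, rank 116. Thus 4 of the 5 values lie below a fold of 2, as do 87 of all 135 higher rows, and the median over the higher rows is 1.82. The authors listed regions with a fold change above 1.5 and a false discovery rate below 0.1. The smallest absolute fold change in the list is accordingly 1.5, which is near the Slfn8 value. Rows just under the limit of the list were not given, so it cannot be said whether other interferon genes lay outside it.

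**Figure D1:**
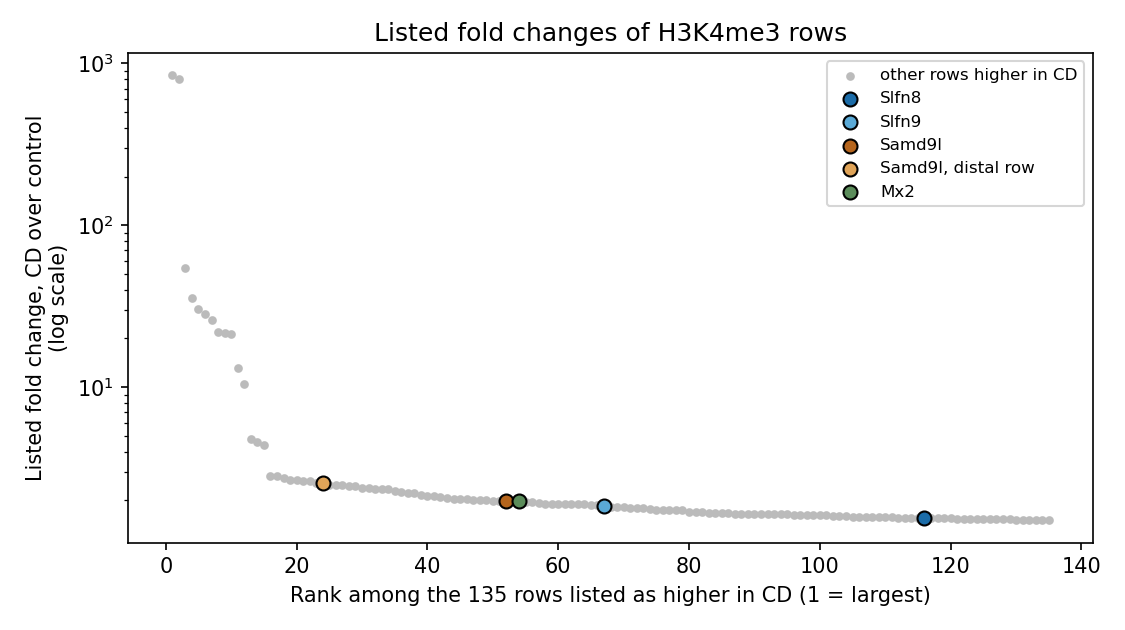
Listed fold change of CD over control (log axis) for the 135 rows higher in CD, ordered by size, with the 5 rows at Slfn8, Slfn9, Samd9l and Mx2 coloured. The 5 rows lie between 1.55 and 2.54, in the flat part of the curve, far below the 2 rows with values above 100 at the left.

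Slfn8 and Slfn9 are long Schlafen genes that lie side by side on the minus strand, with their outermost starts 28980 bp apart. The Slfn8 row (chr11:83019904-83021074, 1171 bp) is the widest of the 5 and the 13th widest of the list. It covers the start of 4 of 6 annotated coding transcripts of Slfn8 (ENSMUSG00000035208), including the outermost, and runs from 264 bp before that start to 906 bp into the gene. Of its length, 430 bp are exonic, 477 bp intronic and 264 bp upstream, and none is coding. The Slfn9 row (100 bp) lies wholly in an intron of Slfn9 (ENSMUSG00000069793), 292 bp downstream of the start of transcript Slfn9-203 and 985 bp downstream of the outermost start. Thus the row at Slfn8 covers annotated starts of its gene, and the row at Slfn9 covers none but lies shortly downstream of them.

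The 2 rows fall at different places in matching sequence. The start regions of both genes align over 2116 columns at 88.3% identity, and this alignment holds both outermost starts. In it, the Slfn8 row matches the stretch of Slfn9 from 227 bp before to 897 bp after the Slfn9 start, at 83.7% identity, and no row is listed there. The Slfn9 row in turn matches a stretch of Slfn8 that ends 88 bp from the edge of the Slfn8 row. The 2 rows therefore take up neighbouring and not overlapping positions of the shared sequence. Between and across their inner edges runs a stretch of 150 bases that is identical in both genes, chr11:82990805-82990954 at Slfn9. It overlaps the Slfn9 row by 41 bp and, at Slfn8, the Slfn8 row by 22 bp. The coding sequences of the 2 genes are identical at 92.7% of 2730 bases.

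**Figure D2:**
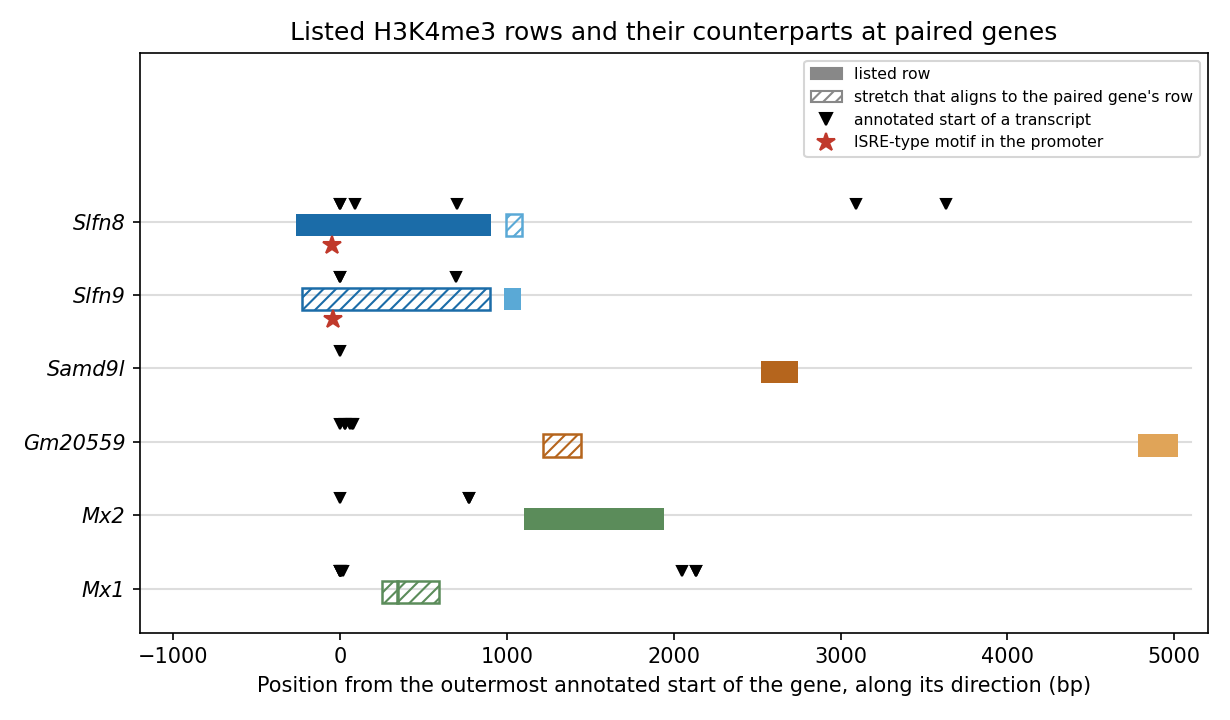
Positions (bp) of the listed rows (filled) and of the stretches that align to a paired gene's row (hatched), from the outermost annotated start of each gene along its direction; triangles mark annotated starts and stars the ISRE-type motif before the starts of Slfn8 and Slfn9. The Slfn8 row spans the start, the Slfn9, Mx2 and Samd9l rows begin 985, 1101 and 2524 bp after it, and the hatched boxes at Slfn9, Gm20559 and Mx1 hold no listed row.

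The reads were 50 bp long, and each row was therefore cut into all its 50-base words (50-mers), which were looked up elsewhere in the genome. None of the 51 words of the Slfn9 row has a further exact place, but all 51 have another place with up to 2 mismatches, in each case in Slfn8 alone. In the reference, each word of this row thus differs from its match in Slfn8 by at most 2 bases. Of the 1122 words of the Slfn8 row, 32 (2.85%) recur exactly and 283 (25.2%) with up to 2 mismatches, all in Slfn9. These words all begin within 368 bp of the edge that lies inside the gene. Of the 50 words over the outermost start, none has another place within 2 mismatches, whereas 48 of the 50 over the inner start of Slfn8-204 do. In the reference, a word over the outermost start of Slfn8 thus has more than 2 mismatches to any other place. Most words at the gene-side end of this row, and all at the Slfn9 row, have a match within 2 mismatches. The reads themselves were not examined. How reads matching several places were treated is not given in the sources used here, and the part that this plays in the listed values was not tested.

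The promoters of Slfn8 and Slfn9 also share an ISRE-type motif. The letters GAAA, followed by any 2 bases and a further GAAA, were searched on both strands from 250 bases before to 50 after each start of the RefSeq promoters (GRCm38.p6). Below are the 200 bases before the outermost starts, written along the genes from the minus strand, with the match, read here on the opposite strand, in capitals.
Slfn8 promoter, chr11:83020811-83021010: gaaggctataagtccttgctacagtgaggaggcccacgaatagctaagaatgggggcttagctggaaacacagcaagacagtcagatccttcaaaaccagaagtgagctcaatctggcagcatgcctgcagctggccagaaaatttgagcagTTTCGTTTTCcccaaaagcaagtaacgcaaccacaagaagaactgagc
Slfn9 promoter, chr11:82991831-82992030: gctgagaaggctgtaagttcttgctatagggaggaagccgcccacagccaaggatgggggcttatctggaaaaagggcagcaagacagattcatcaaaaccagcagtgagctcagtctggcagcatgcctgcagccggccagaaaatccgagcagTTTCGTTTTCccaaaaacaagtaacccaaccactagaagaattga
The same 10 bases begin 48 bases before the start of Slfn8 and 45 bases before that of Slfn9. In Slfn8 they lie inside the listed row, which holds a second match 675 bp into the gene. In Slfn9 they lie 1021 bp from the listed row. A match was found in 3.44% of all 32851 RefSeq promoters, in 45.2% of 115 promoters of the interferon and Schlafen genes described below, and in 12 of the 151 rows (7.95%), whose widths vary and differ from the promoter window, so that the share of rows is not comparable with that of promoters. With 1 mismatch allowed, the shares were 35.4%, 75.7% and 35.1%. Of the other Schlafen genes, Slfn5 has a match 155 bases before its start, and Slfn1, Slfn2, Slfn3, Slfn4 and Slfn14 have none in this window.

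Samd9l (ENSMUSG00000047735) is on the minus strand. Its intronic row (224 bp) lies 2524 bp downstream of the outermost start, and the distal row (244 bp) lies 30910 bp beyond the other end of the gene, 55479 bp from the first. The distal row is not in Samd9l but within Gm20559 (ENSMUSG00000106734), 4782 bp from the outermost start of that gene, with 26 bp in an exon. The start regions of Samd9l and Gm20559 align over 4042 columns at 97.1% identity, and both outermost starts, 53.4 kb apart, are in this alignment. The match of the Samd9l row in Gm20559 begins 1219 bp after the Gm20559 start and is 3340 bp from the distal row. The distal row itself has no alignment to Samd9l. Thus each of the paired genes has one row downstream of its start, at positions that do not correspond.

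Of the 175 words of the intronic Samd9l row, 35 (20%) recur exactly and 146 (83.4%) with up to 2 mismatches, all in Gm20559 and nowhere else. The edge of this row nearest to the start runs into a stretch of 413 identical bases, chr6:3397011-3397423, of which 38 bp are in the row. At the distal row, 8 of 195 words (4.1%) recur exactly and 17 (8.72%) with up to 2 mismatches, 14 of them in another part of Gm20559. At lower identity the distal row resembles many places. With 250 bp on both sides, it has 2 copies of at least 90% identity over at least 80% of the window, on chromosomes 7 and X, the latter in Cldn34c1, and 26 copies of at least 80% identity. The ISRE-type letters are in neither row and not in the RefSeq promoter of Samd9l. The intronic row has 1 match to the letters TTCNNNGAA of the interferon gamma activated site (GAS), which 9.27% of all rows and 8.3% of RefSeq promoters hold. Of the 115 promoters of the interferon and Schlafen genes, 25.2% hold these letters. As for the ISRE-type motif, the share of rows is not comparable with that of promoters.

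Mx2 (ENSMUSG00000023341) is on the plus strand and is annotated as a polymorphic pseudogene, that is, coding in some strains and not in others. Its row (chr16:97536409-97537252, 844 bp) is intronic and lies 326 bp downstream of the start of its coding transcript and 1101 bp downstream of the outermost start. Repeat-masked sequence makes up 44.4% of the row, against a median of 9.73% over the 151 rows. The outer parts of the row align to Mx1 in 2 pieces, at 89% and 88.2% identity, which cover 44.3% of it. These pieces lie next to each other in Mx1, 251 to 591 bp after its start, whereas in Mx2 they are separated by 466 bp, of which 73.8% are masked as repeats. Of 795 words in the row, 19 (2.39%) recur exactly and 259 (32.6%) with up to 2 mismatches. Of the latter, 125 are in Mx1, and 93 have more than 1 other place, with up to 135 for a single word. No row is listed at Mx1, and the nearest is the Mx2 row itself, 73.5 kb away. The Mx2 row holds neither the ISRE-type nor the GAS letters, and the promoters of Mx2, Mx1 and Slfn10-ps were not analysed here.

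**Figure D3:**
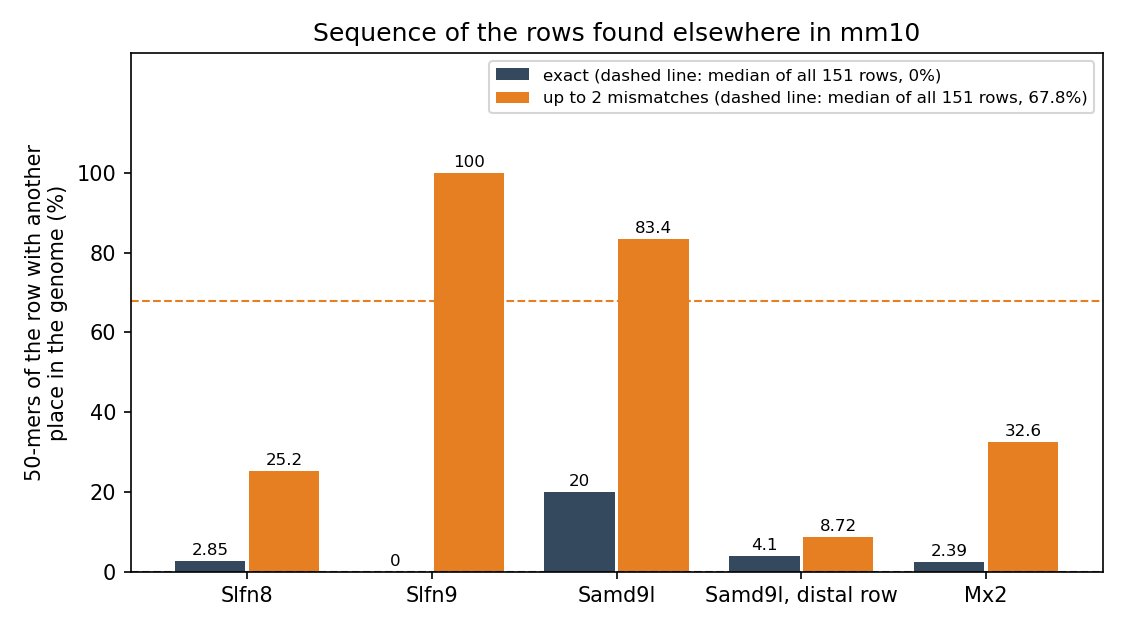
Percent of the 50-base words of each row that occur at another place in mm10, exactly (dark) and with up to 2 mismatches (orange); dashed lines give the medians over all 151 rows, 0% and 67.8%. Slfn9 (100%) and Samd9l (83.4%) are above the second median, and Slfn8, Mx2 and the distal row are below it.

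Over the whole list, with up to 2 mismatches, 54 rows have all of their words elsewhere, as the Slfn9 row does. Exact recurrence is rarer, with a median of 0%, and 20% at the Samd9l row ranks 21 in the list. With 250 bp on both sides, 60.3% of all rows have a copy of at least 90% identity over at least 80% of the window. Of the 5 rows, the Slfn9 row has such a copy, in Slfn8 at 96.7% identity, and the distal row has the 2 named above. The windows of the Slfn8 and Samd9l rows have a copy of 86.2% and 85.7% identity, in Slfn9 and Gm20559. That of the Mx2 row has none of at least 80% identity over at least 50% of the window. Aligned without the added 250 bp and at any length, the Mx2 row has 8010 alignments to other places, which together cover 99.5% of it. The distal row has 55, which cover 100%. The Slfn8 row has 4, among them 1 of 80% identity over 165 columns in the pseudogene Slfn10-ps. Another, of 79.1% identity over 220 columns, lies just before the outermost start of Slfn10-ps.

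**Figure D4:**
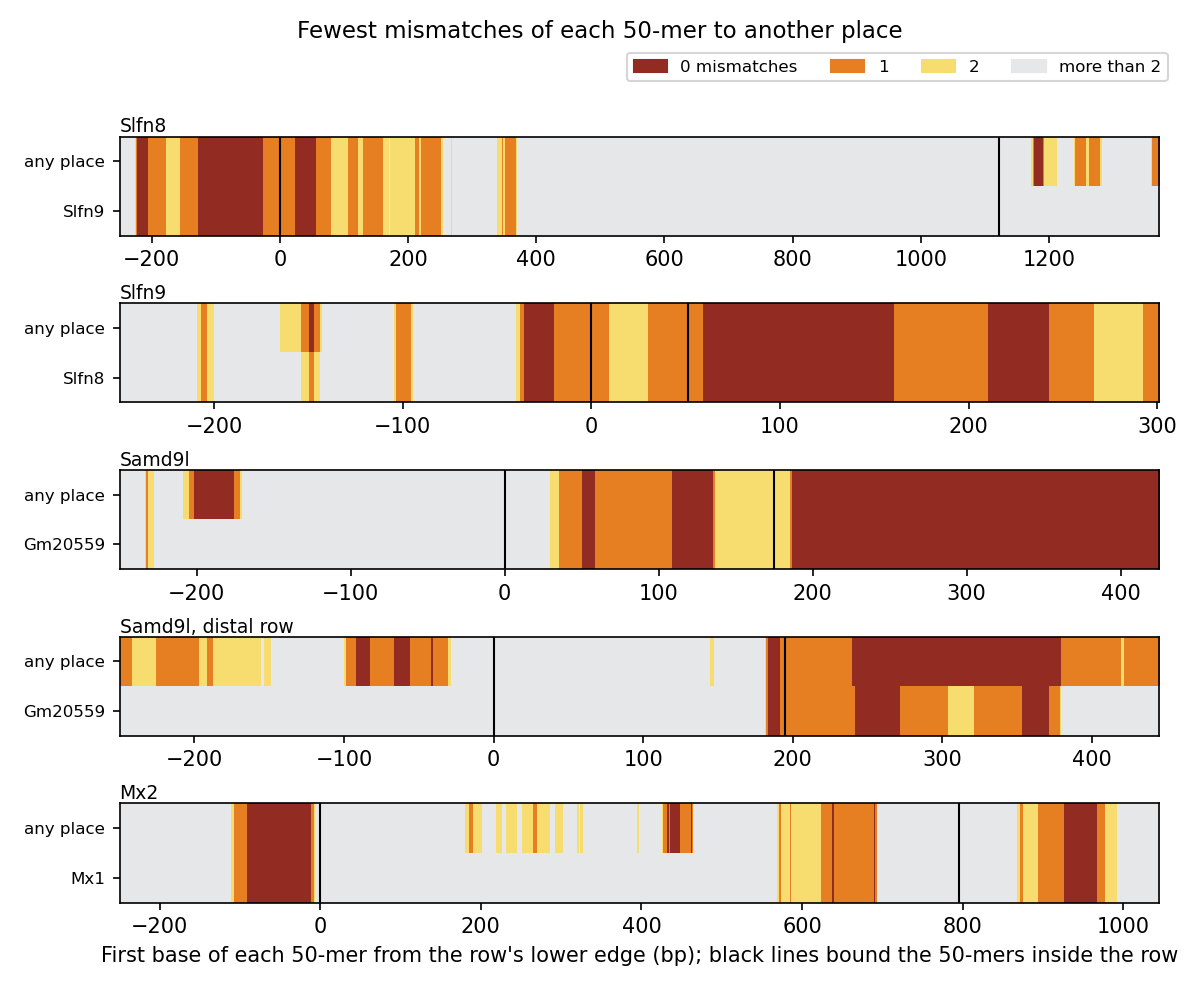
Fewest mismatches of each 50-base word to any other place (upper strip) and to the paired gene (lower strip), along each row with 250 bp on both sides; the x axis gives bp from the row's lower coordinate edge, and black lines bound the words inside the row. Matches in the Slfn8 row are at the left, gene-side end, while the Slfn9 row is coloured along its whole length.

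The rows also differ in base composition. The Slfn8 row has 23 CpG and 50.3% G and C bases, and its observed over expected CpG ratio of 0.313 is below the median of 0.485 over all rows. The distal row has 9 CpG and a ratio of 0.553. The Slfn9 row has none, the Samd9l row 2 and the Mx2 row 3. Within 1 kb of a coding start lie 3 of the 5 rows, those at Slfn8, Slfn9 and Mx2, compared with 49 of all 151 (32.5%).

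The wider interferon pathway was then looked up in the list, from ligands to effectors, as genes with a row within 50 kb of their body. Over the genome, 240 of 21951 protein-coding genes (1.09%) have such a row. Neighbouring genes share rows, so these counts are not independent. None of 20 interferon genes, 6 receptor genes, 14 genes of signalling such as Jak1 and 11 nucleic acid sensor genes has one. Of 51 antiviral effector genes, only Mx2 and Samd9l have a row, and they were in the choice of genes. In the Schlafen family, 5 of 10 genes have a row, but all through the 2 rows described above. These are Slfn8, Slfn9, the pseudogene Slfn10-ps at 7055 bp, Slfn5 at 25905 bp and Slfn2 at 44037 bp. In the Ifi200 family of interferon-inducible DNA-binding proteins, 3 of 11 matched genes have a row. The row at Ifi211 overlaps the gene and is listed at 1.65, and the nearest row to Ifi203 is the same one at 8985 bp. A further 3 rows, listed at 1.68, 1.56 and 1.51, are within 50 kb of both genes, and the row near Ifi204 is 35203 bp away and is listed at 1.58. Mndal, a member of this family that was not in the list searched and was chosen after its rows were seen, spans 4 of these 5 rows, and the 3 listed at 1.68, 1.56 and 1.51 are within 5 kb of one of its starts. With Mndal, 4 of 12 genes of the family have a row within 50 kb. Without the 4 chosen genes and their 5 rows, 3 of 119 genes of these lists (2.52%) have a row within 50 kb, namely Ifi203, Ifi204 and Ifi211, compared with 1.06% of protein-coding genes counted in the same way. With Mndal, it is 4 of 120 (3.33%). Within 5 kb of a start, Ifi211 is the single gene of the 119 (0.84%), or one of 2 with Mndal (1.67%), compared with 0.264% of protein-coding genes. These few genes are near each other on chromosome 1 and share rows, so the counts are not separate observations. The lists, the Ifi200 family among them, were also chosen with earlier results of these data known. The shares are therefore descriptions, and an excess over all protein-coding genes was not tested.

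Markers of ovarian cells and of leukocytes were looked up in the same way, since leukocytes express many of these genes. None of 8 ovary markers, among them Amh, Foxl2 and Zp3, and none of 8 leukocyte markers, among them Ptprc and Cd3e, has a row within 50 kb. Over all protein-coding genes the share is 1.09%, so the lack of a row at 8 genes says little about either cell group. The list holds no level for a gene without a row, so the tissue label could not be checked against the mark at these genes, and a change in the share of leukocytes was not tested. The other genes within 50 kb of the 5 rows include Unc45b beside the Schlafen genes and Fam3b and Tmprss2 beside Mx2. Beyond the 5 rows, the next listed row is 3794 kb from Slfn8, 7186 kb from Mx2 and 116017 kb from Samd9l.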

How the data were processed

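H3K4me3 ChIP-seq of 2 CD and 2 control ovary samples was used. The authors mapped 50-bp reads to mm10 with Bowtie 1.0.0 (seed length 40), called peaks with MACS2 2.1.1 (shift size 73 bp, p threshold 1e-05) on the replicates and input, and tested them with limma. Their deposited table of 151 regions holds 1 score per region, the fold change between CD and control with a sign for its direction; how reads were normalized and multiply matching reads treated is not given in the sources used here. These values come from the authors' own comparison and were used only to describe the rows. They carry no depth, so no precision can be given.

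Positions are 1-based, on mm10 with GENCODE M21. Distances run from the row's edge to the nearest start of a protein-coding transcript. Words of 50 bases were looked up on both strands of the assembly without patches. Windows with 250 bp on both sides were aligned with blastn of BLAST+ 2.17.0 (word size 16). Python 3.11.15, Numba 0.67.0, NumPy 2.4.6 and Biopython 1.88 were used. Simulated sequences made with or without the feature were all scored rightly. These were 90 of 90 for repeated words, 60 of 60 for copies and 100 of 100 for motifs. The genes, gene lists and motifs were chosen with earlier results of these data known. Named are the 4 genes, genes within 50 kb of their rows, listed genes with a row and genes at aligned copies; other genes are named as examples of lists or as relatives. No test between groups was possible. Swiss mice are outbred and may differ from the C57BL/6J reference.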

Additional observations from a re-analysis of the deposited data

How the results depend on the processing

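The number of rows, their distances to a start, the shares of words found elsewhere, the aligned copies, the interferon genes with a row and the shares with an ISRE-type motif were recomputed with other settings, and the other values were not. The number of rows was 4 or 5 with other windows, but 1, the distal row, at a listed fold change of at least 2. From the outermost start, the distance became 985 bp at Slfn9, 1101 bp at Mx2 and 58226 bp at the distal row, and from the centre of the row it was 341.5 bp at Slfn9, 233 bp at Slfn8, 747.5 bp at Mx2, 43781.5 bp at the distal row and 2635.5 bp at Samd9l. The share of words found elsewhere moved at each of the 5 rows. For Slfn9, Slfn8, Mx2, the distal row and Samd9l in this order, it was 9.23%, 6.87%, 12.1%, 18.7% and 34.9% with words of 36 bases and 27.6%, 10%, 10.9%, 24.3% and 44.4% with 250 bp added on both sides. It was 100%, 25.2%, 32.6%, 8.72% and 83.4% with up to 2 mismatches and 0% in each with words of 100 bases. Copies of the distal row numbered 0 at an identity of at least 95%, 26 at 80% and 5 over 50% of the window, and the Slfn8 and Samd9l rows each gained 1 at 80%. Genes of the interferon and Schlafen lists with a row numbered 10 within 50 kb, 7 within 10 kb and 5 within 5 kb of a start, while the share over all protein-coding genes was 1.09%, 0.469% and 0.278%. The choice of genes fixes most of these counts, since without the 4 genes and their rows 3, 2 and 1 of 119 genes are left. Adding Mndal, chosen after seeing the data, made them 11 within 50 kb. With 1 mismatch the ISRE-type letters were in 35.1% of rows and 35.4% of promoters, and in 13.3% of promoters with 1000 bases before the start. For promoters of the interferon and Schlafen lists, 45.2% became 75.7% and 55.7%, so the ratio to all promoters was smaller with both. No paired analysis was possible because the list holds no value per sample, and no replicate could be left out for the same reason.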
